A study of Mus musculus with 3 samples.

Results

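The genes described here are the mitosis, kinesin and centromere genes listed in RNA-seq of a cell population sorted from mouse bone marrow. They were chosen by name alone, as the numbered Kif, Cdc, Plk, Nek, Smc and Anapc genes (leaving out Cdc42 names), the Cenp genes, the A, B and E cyclins, the Bub1, Aurk and Ncap genes, and Mki67, Top2a, Birc5 and Cdk1. This gave 118 of 11419 listed genes. Some names carry the prefix without the function: Aurkaip1 encodes an Aurora kinase A interacting protein that is also a part of the mitochondrial ribosome, Cdc37 is a cochaperone of HSP90, and Cdc40 and Cdc5l belong to the spliceosome.

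The study sequenced messenger RNA from 3 libraries of 1 population, the cells of C57BL/6 mice that stained for CD11b, F4/80 and CD169 and lacked CX3CR1, from marrow of the tibia and femur. All libraries share this gate and strain; the labels give no treatment, age or second population, and do not give the number of mice behind a library. Values are CPM, the reads of a gene per 1000000 reads assigned to the listed genes. The recovered totals were 5150020, 40149274 and 37604930 reads in replicates 1, 2 and 3, so that 10 CPM stood for 51.5, 401 and 376 reads. The labels call the cells macrophages. Of 10 macrophage markers 5 were above 10 CPM and 3 below, among them Siglec1, the gene of CD169, with 0.388, 3.66 and 4.57 CPM. Of all 11123 genes tested against this level, 58.8% were above it and 28.3% below. The 10 macrophage markers summed to 234 to 259 CPM. A list of 9 neutrophil markers of stages after the promyelocyte, among them Ngp, Ltf, Camp and Lcn2, summed to 181640 to 218700 CPM. This list was not split into dividing and later stages. Markers of promyelocytes summed to 6542 to 8457 CPM and erythroid markers to 636 to 1101 CPM, and both populations are known to divide in marrow. In such bulk RNA, a larger share of dividing cells and more of these transcripts per dividing cell cannot be told apart.

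Cells duplicate their DNA in S phase and share it out in M phase. E cyclins and the licensing factors act at the G1/S border, A and B cyclins with the kinase CDK1 drive the cell through G2 into mitosis, and kinesins, condensin and the kinetochore move and shape the chromosomes. The anaphase-promoting complex (APC/C), a ubiquitin ligase, ends mitosis by marking securin and the cyclins for destruction. Many genes needed for mitosis are transcribed from late S phase onward through promoter elements called CHR and CCAAT, bound by the MuvB complex and by NF-Y, while many G1/S genes carry E2F sites. In the neutrophil lineage, promyelocytes and myelocytes divide and later stages do not.

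Promoter sequences show a feature that the choice by name did not use. RefSeq starts (build GRCm38.p6) were found for 104 members, with 119 promoters of 300 bases, from 250 before to 50 after the start. The stretches below were chosen to show CHR and CCAAT matches of G2 and M genes (Ccnb2, Cdc20, Kif11, Top2a). They also show E2F matches of a G1/S gene (Cdc25a) and a transport kinesin without a CHR match (Kif3b). They run 5′ to 3′ on the gene's strand up to the start or to the first annotated UTR base, and capitals mark matches.
Ccnb2: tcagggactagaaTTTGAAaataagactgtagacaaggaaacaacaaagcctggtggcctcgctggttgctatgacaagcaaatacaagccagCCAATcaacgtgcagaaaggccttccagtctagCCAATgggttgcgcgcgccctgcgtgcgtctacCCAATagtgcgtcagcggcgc
Cdc20: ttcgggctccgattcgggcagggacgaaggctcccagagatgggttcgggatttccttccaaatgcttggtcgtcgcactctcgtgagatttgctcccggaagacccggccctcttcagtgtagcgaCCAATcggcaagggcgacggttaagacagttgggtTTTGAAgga
Kif11: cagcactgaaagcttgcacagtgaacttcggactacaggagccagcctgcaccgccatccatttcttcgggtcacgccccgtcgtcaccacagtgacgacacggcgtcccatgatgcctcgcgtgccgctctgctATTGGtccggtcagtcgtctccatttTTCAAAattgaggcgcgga
Top2a: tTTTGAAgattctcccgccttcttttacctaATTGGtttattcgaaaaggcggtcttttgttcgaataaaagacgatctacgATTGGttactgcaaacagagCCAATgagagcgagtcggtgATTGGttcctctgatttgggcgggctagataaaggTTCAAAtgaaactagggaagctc
Cdc25a: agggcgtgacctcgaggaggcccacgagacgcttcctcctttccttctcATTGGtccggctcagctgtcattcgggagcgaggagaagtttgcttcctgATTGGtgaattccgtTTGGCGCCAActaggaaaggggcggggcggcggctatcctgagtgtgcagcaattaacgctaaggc
Kif3b: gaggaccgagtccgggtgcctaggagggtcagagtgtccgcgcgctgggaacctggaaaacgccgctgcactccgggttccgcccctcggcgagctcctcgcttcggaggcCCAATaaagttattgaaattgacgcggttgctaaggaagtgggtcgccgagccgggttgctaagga
The stretches lie at chr9:70421555-70421734 (minus strand, Ccnb2), chr4:118437353-118437523 (minus, Cdc20), chr19:37376202-37376381 (plus, Kif11), chr11:99024190-99024369 (minus, Top2a), chr9:109875399-109875578 (plus, Cdc25a) and chr2:153291236-153291412 (plus, Kif3b).

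The motifs searched on both strands were TTTGAA for CHR and CCAAT by its own name. For E2F a promoter counted with TTGGCGC, and it counted equally where the search found the form TTCCCGC. The reverse complement of the first E2F form ends like the start of CCAAT, so matches of both can overlap. In Ccnb2 the 3 CCAAT matches began 87, 54 and 21 bases before the start. The CHR match shown for Ccnb2 lay upstream of them, 167 bases before the start. A second CHR match began 4 bases after the start, outside the stretch shown. The CHR matches of Top2a began 179 and 23 bases before the start. In Cdc20 the CHR match began 18 bases before the start and in Kif11, on the other strand, 19 bases before it. Cdc25a held 2 overlapping E2F matches, from 66 and 63 bases before the start, and no CHR match. Kif3b held 1 CCAAT match.

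CHR matches were found in 32.8% of the 119 member promoters, against 17.9% of all 32851 promoters of the table and 12.5% of the 11460 promoters of all listed genes. Genes placed by hand in G2, by textbook mRNA peaks, had it in 11 of 13 promoters (84.6%). Those placed in M had it in 6 of 11 (54.5%) and those placed at G1/S in 1 of 5 (20%). The kinesins divided by role. Of the mitotic kinesins 9 of 11 promoters had a CHR match, and of the other kinesins 0 of 14. Condensin promoters had it in 5 of 8, CENP promoters in 5 of 24 and APC/C promoters in 3 of 17. CCAAT was in 48.7% of member promoters and 37.4% of all promoters, and in 20 of 24 of the G2 and M promoters. E2F matches were in 24.4% of member promoters, 6.81% of all promoters and 12.0% of those of listed genes, with 5 of 8 condensin and 9 of 24 CENP promoters. By phase they were in 2 of 5 promoters of the G1/S genes, 3 of 13 of the G2 genes and 2 of 11 of the M genes. The A and B cyclins with CDK1 had them in 2 of 3 promoters, so E2F matches were not limited to the G1/S genes. A match describes the letters in the window and is no evidence of binding. No promoter was matched for Aurkaip1, Aurkb, Ccna2, Ccne2, Cdc23, Cdc25c, Kif13b, Kif19a, Kif20a, Kif21b, Kif5a, Kif5b, Nek1 and Smc4.

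**Figure D1:**
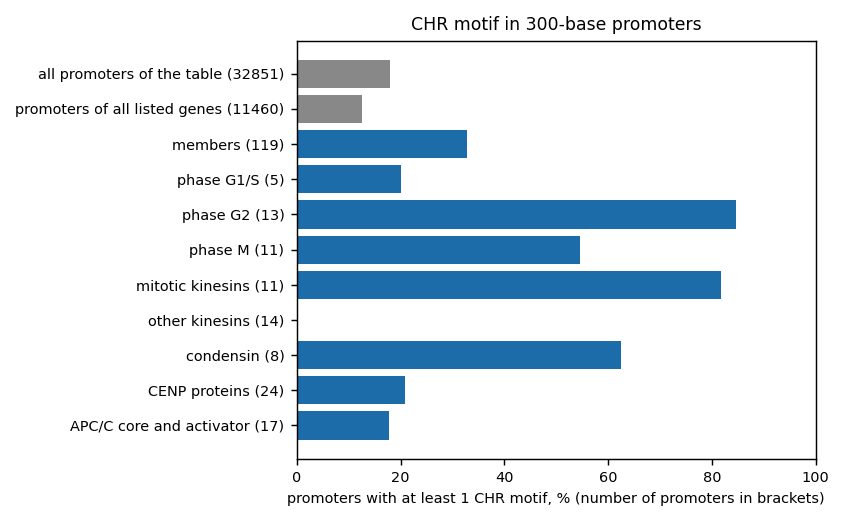
Share of 300-base promoters with at least 1 CHR match, in percent, for all promoters of the table and of listed genes (grey) and for sets of members (blue), with the number of promoters in brackets. The bar of the G2 genes reaches 84.6% and that of the mitotic kinesins 81.8%, while the other kinesins have none.

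Most of the mitosis, kinesin and centromere genes were above 10 CPM, a fixed level used because there is no second population. Of the 118, 115 had at least 10 recovered reads and were tested, 95 of them were above 10 CPM and 15 below, and 5 were called neither way (limma, Benjamini-Hochberg adjusted p under 0.05 over all genes tested). Above the level were 82.6% of the tested members, beside 58.8% of all 11123 tested genes. Below it were 13.0% of the members, beside 28.3% of all tested genes. The median member was at 40.0 CPM and the median listed gene at 19.7 CPM. Per kb of exons, the scale used to compare levels between genes, the median over members was 6.73 ± 0.88 CPM per kb and that over all listed genes 4.31 ± 0.28 (SD of the library medians, n = 3). The members summed to 7387, 8115 and 8579 CPM in replicates 1, 2 and 3, which is 0.803% of reads on average. The p-values measure the spread between these libraries only, which may be technical.

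**Figure D2:**
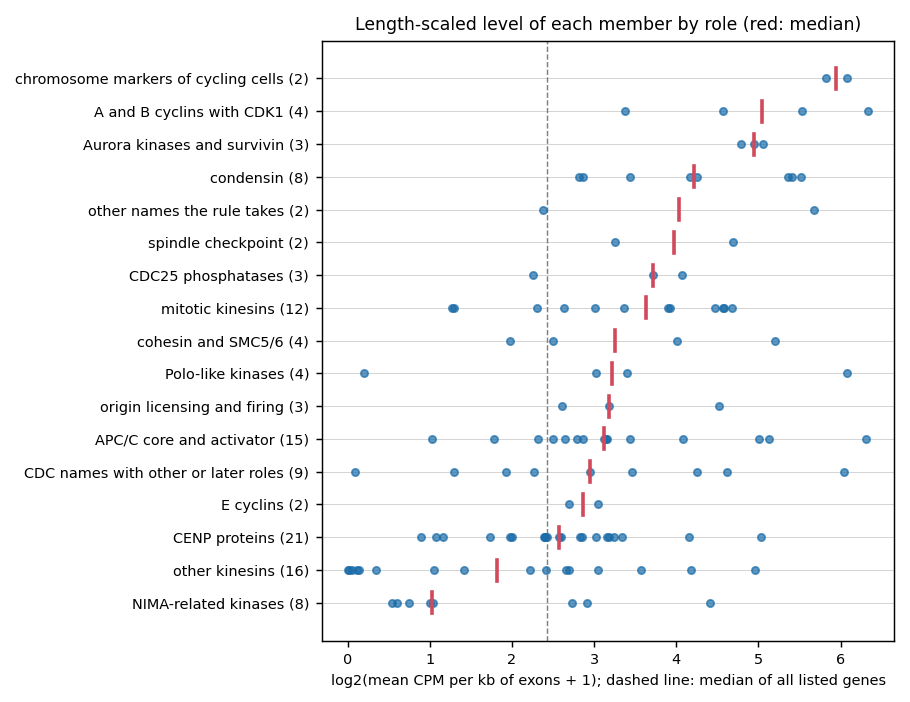
Mean level of each member, as log2(CPM per kb of exons + 1), in groups by role with the number of listed members in brackets. Red bars mark group medians and the dashed line the median of all listed genes, and groups of cyclins, Aurora kinases and condensin lie to the right of that line while most NIMA-related kinases lie to its left.

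The A and B cyclins with their kinase ranged from rank 1 (Ccnb2) over 8 (Ccna2) and 24 (Cdk1) to 45 (Ccnb1) of the 118 members per kb. Ccnb2, which encodes cyclin B2, was at 128, 111 and 129 CPM in replicates 1, 2 and 3, and per kb it ranked first of the 118 on average (80.0 ± 6.6 CPM per kb, SD, n = 3), at rank 2, 3 and 1 in the libraries. With the longest transcript as length Ccnb2 was at rank 4, so its first place rests on the length used. Its level over 10 CPM was 3.48 on the log2(CPM + 1) scale (SE 0.12, limma adjusted p = 1.13e-17). Ccna2, the gene of cyclin A2, was at 185, 171 and 199 CPM (45.3 ± 3.43 CPM per kb) and Cdk1 at 124, 99.2 and 112 CPM (22.7 ± 2.56 per kb). Ccnb1, the gene of cyclin B1, was at 37.86, 37.98 and 42.39 CPM, or 9.35 ± 0.61 CPM per kb. Within each library Ccnb1 was below Ccnb2 by 3.22, 3.01 and 3.06 on the log2 scale of CPM per kb, and below Ccna2 by 2.33, 2.22 and 2.28. The libraries did not overlap in either case. Ccna1 and Ccnb3 were not listed.

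The E cyclins, which partner CDK2 at the entry into S phase, were lower. Ccne2 was at 26.6, 19.5 and 29.8 CPM and Ccne1 at 14.37, 13.13 and 15.98 CPM, and both were above 10 CPM (limma adjusted p = 9.89e-07 and 0.0237). Ccne1 lost its call without replicate 2 (adjusted p = 0.0759) and without replicate 3 (0.0901). Per kb, Ccne1 was below Ccne2 by 0.50, 0.18 and 0.51 (log2).

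Of the CDC25 phosphatases, which remove the inhibitory phosphates from CDKs, all 3 were above 10 CPM. Cdc25a was at 122, 126 and 131 CPM, Cdc25b at 42.1, 43.1 and 50.3, and Cdc25c at 18.1, 19.6 and 18.2 CPM. Per kb Cdc25a exceeded Cdc25b by 0.43, 0.44 and 0.28 on the log2 scale. Of the origin factors that the name rule takes, Cdc45, a subunit of the replicative helicase, was at 76.7, 74.1 and 79.6 CPM. Cdc6, which loads the helicase, was at 26.2, 24.4 and 29.3 CPM, and Cdc7, the kinase that fires origins, at 31.5, 29.9 and 40.0 CPM. Cdc45 had the highest level per kb of the 3, at 21.9 ± 0.79.

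Among Polo-like kinases, Plk1 stood far above the stress-responsive relatives. Plk1, which drives mitotic entry and spindle assembly, was at 149, 141 and 151 CPM (66.7 ± 2.40 CPM per kb, limma log2 3.74 over 10 CPM, SE 0.11, adjusted p = 1.42e-18). Plk2 was at 0.388, 0.872 and 0.691 CPM, from 2, 35 and 26 reads, and was the 1 member of its family below 10 CPM (adjusted p = 1.76e-07). Plk4, which starts centriole duplication, was at 40.8, 45.4 and 60.9 CPM. Plk3 was at 39.6, 17.8 and 15.1 CPM, so replicate 1 was over 2 times the others. Per kb Plk1 exceeded Plk3 by 2.11, 3.19 and 3.53 and Plk2 by 9.61, 8.36 and 8.80 (log2). The value against Plk2 in replicate 1 rests on 2 reads.

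The Aurora kinases and survivin were close to each other. Aurka, which acts at spindle poles, was at 86.6, 77.5 and 80.0 CPM, and Aurkb, the kinase of the chromosomal passenger complex, at 67.4, 91.1 and 77.4 CPM. Per kb the difference between Aurka and Aurkb was 0.58, -0.01 and 0.27 (log2), so they were not told apart beyond the spread of the libraries. Birc5, the gene of survivin, a partner of Aurora B, was at 130, 97.7 and 77.3 CPM. Aurkaip1 was at 93.8, 95.7 and 76.9 CPM and Kif1bp, a kinesin-binding protein, at 19.4, 19.3 and 22.8.

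NIMA-related kinases spread on both sides of 10 CPM. Nek9 was at 84.3, 111 and 131 CPM, Nek7 at 40.8, 45.6 and 57.8, and Nek2, the mitotic centrosome kinase, at 27.4, 23.4 and 25.7 CPM. These 3 of 8 listed members were above 10 CPM, 4 (Nek1, Nek3, Nek4, Nek8) were below, and Nek6 was not called (11.3 ± 1.59 CPM, adjusted p = 0.496). Nek4, at 1.55, 3.79 and 6.78 CPM, had the lowest mean per kb but the lowest value in no library, where Nek3 (replicates 1 and 3) or Nek1 (replicate 2) was lower. Nek1 was at 2.72, 2.62 and 10.7 CPM, and its call below 10 CPM was lost in edgeR (adjusted p = 0.0566) and DESeq2 (0.0518) on recovered reads and without replicate 2 (0.0619). Nek8, at 3.69, 3.84 and 8.27 CPM, lost its call without replicate 2 too (0.0624). Nek5, Nek10 and Nek11 were not listed.

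Of 15 APC/C genes 14 were above 10 CPM and 1 was below, with a median of 37.8 CPM. Cdc20, the activator of the complex in mitosis, was at 157, 141 and 143 CPM and ranked second of all members per kb (78.6 ± 4.52 CPM per kb, limma log2 3.75 over 10 CPM, SE 0.11, adjusted p = 1.53e-18). Fzr1, which activates the complex from late mitosis into G1 and is outside the name rule, was at 122, 132 and 123 CPM, and per kb Cdc20 exceeded it by 1.62, 1.36 and 1.48 (log2). Of the core subunits Anapc5 (212, 219 and 194 CPM) and Anapc2, the cullin subunit (117, 104 and 100.3 CPM), were highest per kb. Anapc10, a substrate receptor, was the gene below 10 CPM, at 6.21, 4.38 and 4.52 CPM (adjusted p = 0.00312). Cdc26, a small subunit, was at 25.8, 13.2 and 13.5 CPM, and without replicate 1 it was not called (adjusted p = 0.102). The other core subunits (Anapc1, Anapc4, Anapc7, Anapc11, Anapc13, Anapc15, Anapc16, Cdc16, Cdc23 and Cdc27) had means of 22.7 to 87.8 CPM.

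Both spindle checkpoint genes were above 10 CPM. Bub1b, the gene of the checkpoint protein BUBR1, was at 102, 108 and 107 CPM, and Bub1, a kinase at the kinetochore, at 34.6, 33.9 and 42.8 CPM. Per kb Bub1 was below Bub1b by 1.58, 1.70 and 1.35 (log2). Bub1b had the smallest SD over libraries of the 99 members with a mean of at least 10 CPM.

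All 8 condensin genes were above 10 CPM, with a median of 85.3 CPM. Ncapd2, of condensin I, was at 301, 259 and 284 CPM, Smc4, one of the 2 ATPase arms, at 168, 207 and 272, and Ncaph2, of condensin II, at 195, 169 and 142 CPM. Smc4 was highest in replicate 3 and Ncaph2 in replicate 1. Ncapg2 had the lowest mean per kb, at 46.0, 58.0 and 75.7 CPM, though Ncapg was lower in replicate 3 and with the longest transcript as length. Ncapg had a mean of 44.4 ± 8.67 CPM, beside Ncaph (77.9 ± 8.43) and Ncapd3 (77.5 ± 9.77 CPM). The median of the 3 condensin I genes exceeded that of the 3 condensin II genes by 1.07, 0.57 and 1.01 (log2, per kb). This sets Ncaph against Ncapd3, which are different subunits, and matching subunits did not share the direction. On the mean per kb Ncapd2 (44.9) was above Ncapd3 (9.82), Ncapg (6.29) was close to Ncapg2 (6.03), and Ncaph (18.1) was below Ncaph2 (40.2). Smc2, the partner of Smc4, was at 75.5, 97.4 and 105 CPM and was below Smc4 per kb by 1.23, 1.16 and 1.44.

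Cohesin, which holds sister chromatids together, also acts outside mitosis. Smc1a was at 179, 205 and 236 CPM and Smc3, its partner in the ring, at 88.2, 77.7 and 85.3 CPM. Smc4 exceeded Smc3 by 1.02, 1.5 and 1.76 (log2, per kb). Smc6 (54.0, 51.2 and 68.4 CPM) and Smc5 (18.3, 19.3 and 21.8 CPM), which form a complex for DNA repair, were lower per kb and above 10 CPM. Smc1b was not listed.

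CENP genes were spread widely. Of 21, 15 were above 10 CPM, 4 below (Cenpk, Cenpp, Cenpv, Cenpw) and 2 not called (Cenpm, Cenps), with a median of 4.94 CPM per kb, beside 4.36 over all listed genes. Cenpx, a small histone-fold protein, was highest per kb, at 40.2, 32.1 and 30.4 CPM. Cenpa, the histone H3 variant that marks centromeres, was at 120, 99.5 and 76.5 CPM. Cenpe, the kinesin of the kinetochore, was at 51.3, 87.0 and 79.7 CPM and Cenpf at 40.2, 69.5 and 88.5, so these were lowest in replicate 1 while Cenpa was highest there. Per kb Cenpf was below Cenpe by 1.19, 1.16 and 0.69 (log2).

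The constitutive centromere network stays on the centromere through the cycle. Of its genes, Cenph was at 17.67, 15.27 and 16.04 CPM, Cenpu at 16.12, 15.99 and 20.45, and Cenpq at 17.1, 15.3 and 15.4 CPM. Cenpw was at 6.60, 4.46 and 2.87 CPM (adjusted p = 0.00159). Cenpk (6.41 ± 1.05 CPM, adjusted p = 0.0301) and Cenpp (5.97 ± 0.60, adjusted p = 0.0153) were below 10 CPM by a small margin. Both lost that call without replicate 2 (adjusted p = 0.147 and 0.0653) and without replicate 3 (0.108 and 0.0518). Cenpk also lost it in DESeq2 (adjusted p = 0.0555). Cenps (16.9, 13.0 and 10.8 CPM, adjusted p = 0.0858) was above 10 CPM without replicate 3 (0.0309). Cenpv was at 0.194, 2.09 and 2.34 CPM. Among all 21 CENP genes, in this network or not, it had the lowest mean per kb, through replicate 1 with 1 read. In the other libraries, and on the mean with the longest transcript as length, Cenpw was lower. Cenpm, not called, was at 7.38, 10.5 and 6.49 CPM (limma adjusted p = 0.241). The rest of the CENP genes, not all of them of this network (Cenpb, Cenpc1, Cenpi, Cenpj, Cenpl, Cenpn, Cenpo, Cenpt), had means of 16.3 to 38.7 CPM. Cenpi lost its call without replicate 3 (adjusted p = 0.0844).

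Mitotic kinesins were above 10 CPM in 10 of 12 cases, with a median of 69.3 CPM, and none was below. Kif20a, which acts in cytokinesis, was at 99.2, 108 and 114 CPM, and Kif18b, a motor that shortens microtubules, at 73.4, 83.4 and 87.9 CPM. Kif22, which pushes chromosome arms, was at 119, 103 and 111 CPM, and Kif11, which slides spindle microtubules apart, at 140, 154 and 178 CPM. These 4 had 21.1 to 24.7 CPM per kb. With the longest transcript as length Kif23 was the highest mitotic kinesin, at 32.9 CPM per kb beside 32.7 for Kif11, and Kif18b was at 24.5. The order at the top thus rests on the length used. Kif23, of the central spindle, was at 103, 114 and 119 CPM and Kif2c, which depolymerises microtubules at the centromere, at 54.8, 65.1 and 61.6. Kif14 was at 31.5, 40.6 and 50.1 CPM and Kif20b at 21.9, 37.8 and 49.3.

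Kif4, Kif15 and Kif20b had the same order over libraries as Kif14, lowest in replicate 1 and highest in replicate 3, with means of 51.3 ± 11.7 and 78.1 ± 18.0 CPM for Kif4 and Kif15. Kif18a, which limits chromosome movement, had the lowest mean per kb, at 11.3, 12.7 and 17.5 CPM, with Kif24 lower in replicate 3 and with the longest transcript as length. It was not called (limma adjusted p = 0.0667). It was above 10 CPM in edgeR on recovered reads (0.0274) and without replicate 1 (0.0187). Kif24, of the centriole, was not called either (11.6 ± 1.25 CPM, adjusted p = 0.394).

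The other kinesins, many of them cargo motors, held the highest kinesin level. Kif21b, known from neurons and lymphocytes as a regulator of microtubule growth, was at 254, 438 and 410 CPM (30.2 ± 8.12 CPM per kb, limma log2 5.03 over 10 CPM, SE 0.13, adjusted p = 5.61e-20). Its mean per kb was above that of every mitotic kinesin, but in replicate 1 its 20.9 CPM per kb was below the 24.4 of Kif22 and the 22.9 of Kif20a. Kif3b was at 72.2, 102 and 115 CPM and Kif5b, a conventional kinesin heavy chain, at 58.8, 99.1 and 102 CPM. Of 16 listed, 9 were above 10 CPM, 4 below and 3 not tested.

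Several relatives of these motors were nearly absent. Kif3a, which pairs with Kif3b in kinesin-2, was at 0.388, 1.25 and 1.20 CPM (adjusted p = 4.51e-07), and Kif3c, an alternative partner chain, at 0, 1.27 and 0.851 CPM. Kif5c had 0 reads in every library, which allows up to 0.583, 0.0747 and 0.0798 CPM, for counting error only. Kif5a had 4 reads in replicate 1 and none in the others, and Kif19a had 6 reads in replicate 2 alone. Kif9 was below 10 CPM at 0.345 ± 0.313. Kif17 was below too, at 8.74, 5.11 and 0.824 CPM, and its call was lost in edgeR (adjusted p = 0.0526) and without replicate 3 (0.0954). The remaining genes of this group, which are Kif2a, a microtubule depolymerase related to Kif2c that also acts at the spindle, and the motors Kif1b, Kif1c, Kif13a, Kif13b and Kif16b, had means of 15.1 to 76.0 CPM. Kif16b lost its call without replicate 2 (adjusted p = 0.266). Kif1a, Kif2b, Kif6, Kif7, Kif12, Kif21a, Kif26a, Kif26b, Kif27 and Kif28 were not listed.

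Mki67, a coat of mitotic chromosomes used to mark cycling cells, and Top2a, which untangles DNA, were both lowest in replicate 1. Mki67 was at 476.5, 770.6 and 755.8 CPM and Top2a at 434.9, 482.5 and 580.5 CPM. Per kb their order changed between libraries (log2 difference of Mki67 to Top2a -0.03, 0.52 and 0.22). With the longest transcript as length, Top2a ranked first of the members and Mki67 seventh, so their order rests on the length used.

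Of the CDC names with other or later roles, 8 of 9 were above 10 CPM. Cdc34, a ubiquitin-conjugating enzyme of G1/S, was at 117, 107 and 82.9 CPM, and Cdc37 at 214, 202 and 164 CPM. The phosphatase genes differed, with Cdc14a at 42.9, 45.8 and 51.5 CPM and Cdc14b at 0, 0.697 and 0.931 CPM. Cdc123, Cdc37l1, Cdc40, Cdc5l and Cdc73 had means of 25.6 to 59.5 CPM.

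The order of phases was described with 35 members placed by hand by textbook mRNA peaks, with earlier results of these data known. The split between G2 and M was not varied. The lists are 6 G1/S genes (Ccne1, Ccne2, Cdc6, Cdc45, Cdc25a, Cenpu), 17 of G2 and 12 of M. All 6, 17 of 17 and 11 of 12 were above 10 CPM, with Kif18a not called. The median log2(CPM per kb + 1) of the G2 list was 4.66, 4.47 and 4.57 in replicates 1, 2 and 3, that of the M list 4.02, 3.91 and 3.84, and that of the G1/S list 2.89, 2.64 and 3.03. The order G2, M, G1/S was thus the same in all 3 libraries, and the lists' medians did not overlap between libraries. G2 exceeded G1/S by 1.71 ± 0.15 and M exceeded G1/S by 1.07 ± 0.24, while G2 exceeded M by 0.64 ± 0.09 (SD, n = 3). No test was made, since the lists are members chosen by hand and levels per kb also differ between genes within a phase: the G1/S list ran from 4.38 (Cenpu) to 21.9 CPM per kb (Cdc45) and the M list from 1.41 (Kif18a) to 78.6 (Cdc20). With means in place of medians the differences were 1.26, 0.74 and 0.52.

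**Figure D3:**
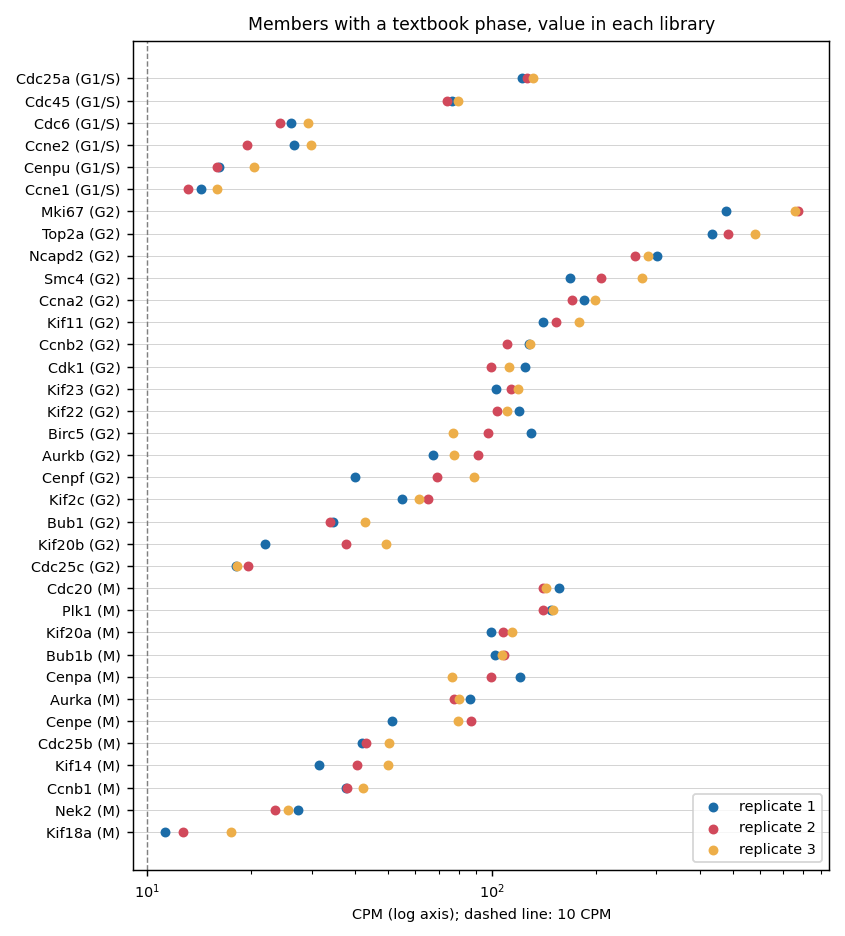
CPM in each library (log axis, 1 point per library) for the 35 members of the phase lists (G1/S, G2 and M), grouped by phase and ordered by mean CPM within each phase. The dashed line is 10 CPM; every point lies to its right, with Kif18a nearest at 11.3 CPM.

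**Figure D4:**
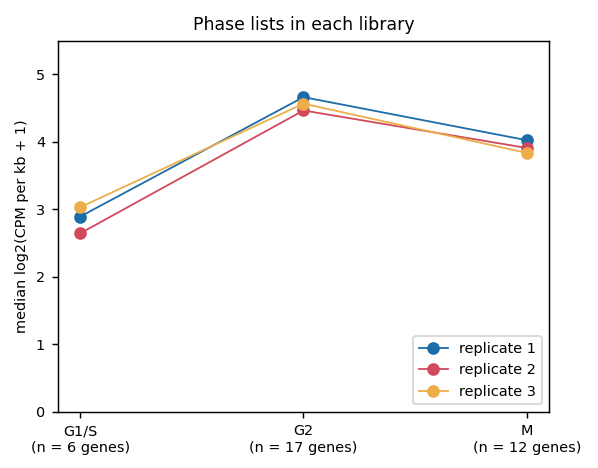
Median log2(CPM per kb + 1) of the G1/S, G2 and M lists, 1 line per library. All 3 lines are lowest at G1/S (2.64 to 3.03), highest at G2 (4.47 to 4.66) and between them at M (3.84 to 4.02).

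Of 14 differences fixed by role, 12 had the same sign in 3 of 3 libraries (exact two-sided sign-flip permutation p = 0.25, the smallest that 3 libraries allow, adjusted p = 0.292 over the 14). The exceptions were Aurka against Aurkb and Mki67 against Top2a (exact permutation p = 0.5, adjusted p = 0.5). None could pass a threshold of 0.05 in this design.

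Genes of the same machinery outside the name rule were mostly above 10 CPM as well. Of all 11123 tested genes, 58.8% were above this level and 28.3% below. Of 24 further kinetochore and checkpoint genes 22 were above 10 CPM and 2 below, led on the mean per kb by Hjurp, the chaperone that loads CENP-A (284, 337 and 431 CPM), Spc24 (71.7, 53.2 and 44.5) and Bub3 (166, 151 and 144). The lowest was Mad2l2, at 4.85, 3.54 and 3.06 CPM. Of 20 spindle and cytokinesis genes 19 were above, with Incenp, the scaffold of the passenger complex (176, 201 and 242 CPM), Tpx2 (146, 151 and 179) and Tacc3 (131, 115 and 112) highest and Psrc1 below at 5.08 ± 2.38 CPM. Of 24 anaphase and mitotic exit genes 22 were above and none below. Ube2c, the E2 enzyme of the APC/C (217, 205 and 196 CPM), Rad21, the kleisin of cohesin (280, 266 and 326), and Fzr1 led them on the mean per kb, while Mastl was not called at 9.13, 10.9 and 12.0 CPM. Pttg1, which encodes securin, was not called either (14.2, 9.19 and 7.29 CPM, adjusted p = 0.942).

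Replication genes and G1 regulators were also mostly above the level, beside the same 58.8% of all tested genes. Of 28 replication genes 24 were above and 1, Orc1 (3.84 ± 1.21 CPM), was below. Rrm2, of ribonucleotide reductase, was at 201, 210 and 237 CPM, Mcm5 at 282, 223 and 235 and Pcna at 135, 111 and 121 CPM. The replication list had a median of 14.7 ± 0.51 CPM per kb, beside 22.7 ± 1.63 for the G2 list, 14.5 ± 1.33 for the M list and 6.34 ± 1.02 for the G1/S list of the members (SD, n = 3). The medians of the replication and M lists differed by less than their SD, and the order of the phases holds for the 6 G1/S genes that the name rule takes. Of 20 genes of G1 control and cycle exit 17 were above and 3 below. Cdkn2d, a CDK4/6 inhibitor (176, 179 and 203 CPM), Ccnd3, the gene of cyclin D3 (1119, 923 and 934), and E2f2 (263, 297 and 336) were highest per kb. Ccnd1 was below, at 0, 1.52 and 1.97 CPM, as were Cdkn1a (4.01 ± 1.49) and Cdkn1c (0.558 ± 0.653 CPM).

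The spread between libraries was described without a test. Over the 99 members with a mean of at least 10 CPM the median SD of log2(CPM + 1) was 0.21, and over all 7283 such genes 0.22. Counting error alone would give a median of 0.03 for members from 100 to 1000 CPM, where the observed median was 0.14, and 0.09 for members from 10 to 30 CPM, where it was 0.20. The least variable were Bub1b, Cdc45 (SD 0.05), Plk1 (0.05), Cdc25a (0.05) and Anapc15 (33.4, 30.9 and 32.5 CPM, SD 0.05). For Anapc15 the counting SD was 0.07, so its spread was within counting error.

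The most variable were Plk3 (SD 0.72), Kif13a (25.8, 50.2 and 57.3 CPM, SD 0.60), Kif20b (0.58), Cenpf (0.57) and Cenpb (23.9, 48.9 and 43.2 CPM, SD 0.54). Plk3 was high in replicate 1 and the other 4 were low there. Of the 99 members 48 had their lowest value in replicate 1 and 55 their highest in replicate 3. These counts were not made over all genes, so they do not set the members apart. The difference of replicate 1 from the mean of the others moved with exon length. Its median was 0.13 for the 26 members with under 4 kb of exons, -0.12 for the 49 from 4 to 8 kb and -0.30 for the 24 of 8 kb or more, and over all genes of these lengths it was 0.09, -0.15 and -0.31. The median fell with length in members and in all genes alike. Markers of other cells also differed in replicate 1, with 5 basophil and mast cell markers at 971, 135 and 137 CPM in sum, 10 erythroid markers at 1101, 636 and 643, and 4 eosinophil markers at 482, 770 and 1167. The part of these in the spread of the members was not tested.

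**Figure D5:**
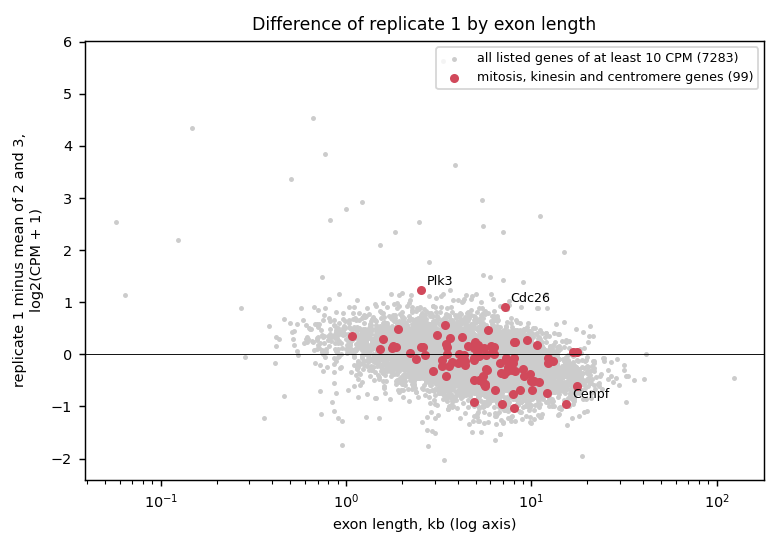
Difference of replicate 1 from the mean of replicates 2 and 3 in log2(CPM + 1), against exon length in kb (log axis), for the 7283 listed genes averaging 10 CPM or more (grey) and the 99 members among them (red). Both clouds fall from left to right, with member medians of 0.13 under 4 kb and -0.30 at 8 kb or more, and Plk3 and Cdc26 lie above the other members.

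The strand setting of the counting is not given in the sources used here, so reads of members that overlap a gene on the other strand may be shared. Among the members named above this concerns Anapc15 (38.4% of its exon bases, with Tomt), Kif20a (29.3%, with Cdc23), Cenpu (26.7%, with Primpol), Ccne2 (17.4%, with Ints8) and Ccna2 (12.5%, with Exosc9). Kif3c, Cenpo, Ncaph2, Kif2a, Kif4, Cdc23, Ncapg, Cdc25c, Cenpp, Kif1bp and Anapc13 also share over 10% of their exon bases in this way. On GRCm38 (GENCODE M21) Ccnb2 (ENSMUSG00000032218) lies on chromosome 9, 70407692 to 70421547, minus strand. Cdc20 (ENSMUSG00000006398) lies on chromosome 4, 118432901 to 118437352, minus strand, and Plk1 (ENSMUSG00000030867) on chromosome 7, 122159439 to 122169873, plus strand. Mki67 (ENSMUSG00000031004) lies on chromosome 7, 135689784 to 135716361, minus strand, and Kif21b (ENSMUSG00000041642) on chromosome 1, 136131389 to 136177998, plus strand. The annotation gives all 5 as protein-coding, and start and end are those of the gene.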

How the data were processed

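RNA-seq of 3 libraries of 1 sorted marrow population was analysed from CPM values that the authors deposited, 1 file per library. Per the submitters' processing notes the tools named are STAR, featureCounts, edgeR and FastQC, and the builds GRCh38 and mm10; versions, annotation, strand setting and gene filter are not given in the sources used here. Of 11463 entries, 44 repeated a gene with identical values; each of 11419 genes was kept once. The CPM then summed to 1000000, and 100% of values were whole multiples of 1 read within 0.01 reads, which gave the recovered reads. Groups follow the labels. The members, lists, pairs and phases were chosen with earlier results of these data known; Kif1bp was put in a role group after the files were read.

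Limma 3.58.1 (R 4.3.3) tested an intercept on log2(CPM + 1), with pseudocount 1, against log2(10 + 1), two-sided, with a variance trend, over 11123 genes with at least 10 reads, with Benjamini-Hochberg adjustment. It was tested on simulated data. Alternatives were edgeR 4.0.16 and DESeq2 1.42.0 on recovered reads, TMM and size-factor scaling, other levels, pseudocounts, filters and lengths, and each library left out. The edgeR and DESeq2 statistics against the fixed level were computed from their fits. Exon union lengths came from GENCODE M21 (GRCm38); 99.9% of genes had one. Promoters came from RefSeq. Named with values in every library are, per role group, the 2 highest and the lowest member per kb, all phase and pair members, and the 5 most and least variable members, and in the further lists the 3 highest and the lowest per kb; other genes are named for calls that change or to account for a list, chosen after their values were seen.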

Additional observations from a re-analysis of the deposited data

How the results depend on the processing

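Against a level of 10 CPM the count of members above it stayed between 75 (level of 20 CPM) and 100 (5 CPM) over all alternatives run, and between 93 and 95 with each library left out. The count below it was 7 at 5 CPM, 21 at 20 CPM and 11 to 15 with each library left out. edgeR on recovered reads gave 96 above and 13 below, and DESeq2 95 and 13. TMM scaling, DESeq2 size factors and pseudocount 0.1 changed no call. Without the filter on reads, 92 were above and 16 below, and Cdc26, Cenpi, Kif16b, Kif17 and Nek1 lost their calls. At 5 CPM the log2 value changed sign for Cenpk (0.30), Cenpm (0.58) and Cenpp (0.21), by construction of the lower level. At 20 CPM it did so for Ccne1 (-0.44), Cdc25c (-0.099), Cdc26 (-0.25), Cenph (-0.28), Cenpi (-0.29), Cenpn (-0.29), Cenpq (-0.31), Cenps (-0.55), Cenpu (-0.19), Kif16b (-0.41), Kif18a (-0.53), Kif24 (-0.74), Nek6 (-0.78) and Smc5 (-0.019). With 10 CPM scaled to the median exon length it did so for Cdc73 (-0.59), Cenpm (1.05), Cenpp (0.035), Kif16b (-0.41), Kif18a (-0.63), Kif24 (-0.58) and Nek6 (-0.96), and 90 members were above and 18 below.

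The order of the phase lists held under every alternative run, none of which changed the lists. With the longest transcript as length G2 exceeded G1/S by 1.97 and M by 0.74, and with means over members the differences of G2 to G1/S, M to G1/S and G2 to M were 1.26, 0.74 and 0.52; the cause was not tested. With each library left out these 3 ranged from 1.65 to 1.80, from 0.97 to 1.20 and from 0.60 to 0.69. Mki67 to Top2a became -0.55 with the longest transcript. The median spread of members ranged from 0.14 to 0.21 with each library left out. In replicate 1, 10 CPM rested on 51.5 reads, which limits the precision of low members there. No paired analysis was possible because the study has 1 group, so no samples of different groups can be paired by number; the 14 differences reported are between genes within a library.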
